A study of Mus musculus with 14 samples.

Results

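FMRP, the RNA-binding protein that is missing in fragile X syndrome, was examined together with its paralogs and its known protein partners in mouse cortex with and without Fmr1. The 8 genes were chosen by symbol and not by their values: Fmr1, its paralogs Fxr1 and Fxr2, and the genes of the FMRP-interacting proteins Cyfip1, Cyfip2, Nufip1, Nufip2 and Caprin1. They are 8 of 23412 genes in the table of counts, and each of the 8 passed the filter on low counts in each comparison. Control mice had the genotype Rpl22flox/flox;CamKCre+ and knock-out (KO) mice Fmr1X-Y; Rpl22flox/flox;CamKCre+, so both groups carried a floxed Rpl22 allele and a CamK-driven Cre. The source is given as CAMKIIa-Ribotag brain. The Cre acts in CamK-expressing neurons, while the protocols name no immunoprecipitation, so the libraries are of bulk cortex. The mice's age was not given in the sources used here. The RNA-seq animals were controls 1, 3, 6 and 8 and KO animals 2, 4, 5 and 7. Ribosome profiling, which sequences the mRNA fragments that ribosomes protect from nuclease (footprints), was done on controls 1, 3 and 9 and KO animals 2, 4 and 10. In bulk tissue, fewer cells of a type and less RNA per cell cannot be told apart.

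FMRP binds mRNAs and ribosomes and acts mainly to restrain translation at and away from synapses. FXR1 and FXR2 share its RNA-binding domains and can form complexes with it. CYFIP1 and CYFIP2 are subunits of the WAVE complex, which drives actin branching downstream of Rac1, and CYFIP1 also links FMRP to the cap-binding protein eIF4E. NUFIP1 is a nuclear RNA-binding protein that serves in the assembly of box C/D snoRNPs, NUFIP2 is a cytoplasmic FMRP-interacting protein, and CAPRIN1 is an RNA granule protein that binds FMRP and G3BP1.

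Libraries held 8847547 to 11371851 counts in RNA and 4124065 to 6033030 in footprints. The RNA libraries also had columns whose header ends in exon, with totals of 16351772 to 20793293. These count the same libraries over another region and are no independent measurement. The RNA libraries were not equally far apart. KO mice 2, 4 and 7 had pairwise chi-square values, divided by their degrees of freedom, of 1.18 to 1.32, while pairs of KO mouse 5 with them had 5.64 to 6.02. Control pairs that included mouse 8 lay between 4.03 and 11.8. Footprint pairs of the same genotype lay between 1.15 and 1.42, near the counting noise, and those of different genotypes between 4.83 and 5.92. The small footprint p-values rest on this narrow spread, and whether it is that between separate animals was not tested. Immediate early genes, which report recent neuronal activity, summed to 294 to 598 CPM (library-scaled counts, where TMM sets the scale from genes that differ little between libraries) in control RNA and 533 to 1198 CPM in KO RNA, and 11 of 12 were called higher in KO mice, beside 3.58% of all genes. A gene is called where its p from edgeR's quasi-likelihood test, adjusted over all genes tested, is under 0.05. In footprints they summed to 711 to 758 CPM among controls and 2552 to 2604 CPM among KO mice, and 12 of 12 were called higher, beside 12% of all genes. The sum of 5 hypothalamic peptide genes was 38.9 to 73.7 CPM in control RNA and 20.1 to 24.0 CPM in KO RNA, with 4 of 5 called lower, beside 3.94% of all genes. In footprints it was 110 to 119 CPM among controls and 41.6 to 48.1 CPM among KO mice, with 5 of 5 called lower, beside 13.7% of all genes. The 7 markers of excitatory cortical neurons were present. Their sum was higher in KO RNA (2853 to 3159 CPM against 2251 to 2523 CPM in controls) and lower in KO footprints (4254 to 4393 CPM against 4513 to 4626 CPM). Single markers did not all follow the sum, with 2 of 7 called higher in RNA and 2 higher and 2 lower in footprints, and Camk2a was at 0.75 in RNA and -0.14 in footprints on the log2 scale. The sum of 5 oligodendrocyte markers was lower in KO mice in both assays (1 of 5 called lower in RNA and 3 of 5 in footprints), with 4055 to 4397 CPM against 4669 to 5123 CPM in RNA and 7814 to 7868 CPM against 8029 to 8178 CPM in footprints. The 5 astrocyte markers summed to 1520 to 1538 CPM in KO footprints against 1635 to 1678 CPM in controls, and their sums overlapped in RNA. In each assay 2 of 5 were called lower and none higher. In footprints the sum of 6 inhibitory neuron markers was higher in KO mice (1698 to 1724 CPM against 1625 to 1671 CPM), with 3 of 6 called higher and 1 lower. The sums of 4 endothelial markers (156 to 164 CPM against 171 to 172 CPM) and of 3 choroid plexus markers (3.09 to 5.16 CPM against 5.20 to 8.52 CPM) were lower there, with 1 of 4 and 1 of the 2 tested called lower. The sums of these 3 lists overlapped in RNA, where 1 of 6 inhibitory neuron markers was called higher and 1 lower. None of the markers was at 0 in every library. The part of these differences in the results below was not tested.

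Fmr1 RNA fell in KO mice to 26.1% of control, and its footprints to 6.56%. Its RNA was at 90.0, 88.1, 82.5 and 71.4 CPM in control mice 1, 3, 6 and 8, and at 23.4, 22.4, 18.1 and 22.7 CPM in KO mice 2, 4, 5 and 7. Its footprints were at 111, 114 and 115 CPM in control mice 1, 3 and 9 and at 8.56, 5.84 and 7.98 CPM in KO mice 2, 4 and 10. The groups lay far apart in both assays, as the genotype labels state, and the KO footprint values rest on 36, 26 and 38 counts. The log2 fold change was -1.93 ± 0.093 (SE, adjusted p = 4.88e-08, edgeR) in RNA and -3.93 ± 0.11 (SE, adjusted p = 1.25e-53, edgeR) in footprints. Only 6 of 13507 genes had a lower RNA fold change and 1 of 12158 a lower footprint fold change.

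The remaining Fmr1 RNA was read over both counted regions of the gene. The RNA column held 47.0% ± 4.07 (SD, n = 4) of the exon column's Fmr1 counts in control mice and 46.6% ± 3.28 (SD, n = 4) in KO mice (exact two-sided permutation test, p = 0.857, adjusted over the 8 genes 0.857). The exon column's Fmr1 counts less those of the RNA column averaged 51.5 CPM among controls against 13.6 CPM among KO mice, or 26.5% of control. Such shares and remainders are parts of the exon column only if the RNA column's region lies within it, which the labels do not state. The fitted log2 change of Fmr1 in the exon columns was -1.91 ± 0.095 (SE, adjusted p = 4.93e-07, edgeR). The labels do not say which part of the gene was changed in the KO allele.

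Footprints relative to RNA, the translational efficiency (TE) of a gene, also fell for Fmr1. The log2 fold change of TE was -2.01 ± 0.18 (SE, adjusted p = 1.15e-06, edgeR), and 2 of 12145 genes had a lower value. In the mice with both assays, Fmr1 had 1.24 and 1.30 footprint CPM per RNA CPM in control mice 1 and 3, and 0.365 and 0.261 in KO mice 2 and 4. These stood at the percentiles 70.2 and 72.8 of all genes in the control mice and 10.6 and 5.33 in the KO mice. The ratio of the group means, which come from partly different mice in the 2 assays, was 1.37 in controls (percentile 77.1) and 0.344 in KO mice (percentile 8.75).

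**Figure D1:**
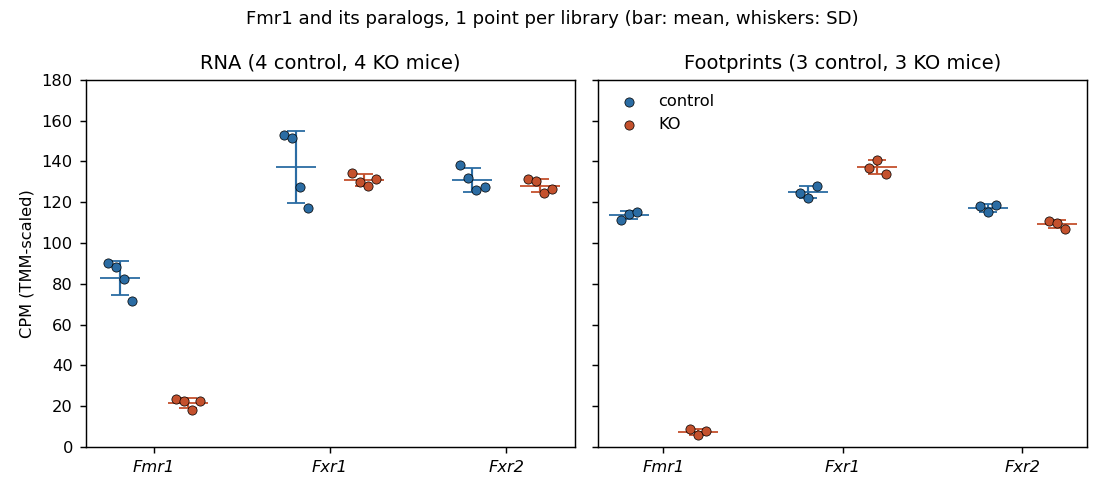
Levels of Fmr1, Fxr1 and Fxr2 in RNA and footprints by genotype, in CPM with TMM scaling. Each point is 1 mouse and the bars give the mean ± SD. Fmr1 drops to 18.1 to 23.4 CPM in KO RNA and to 5.84 to 8.56 CPM in KO footprints, while Fxr1 and Fxr2 lie between 107 and 153 CPM in all libraries.

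Besides Fmr1, none of the 8 genes was called in RNA, so that 1 of 8 passed, against 7.51% of all 13507 genes tested (3.58% higher and 3.94% lower in KO mice). In the exon columns 1 of 8 passed, against 8.64% (4.23% higher and 4.41% lower). In footprints 3 of 8 passed, Fmr1, Fxr1 and Caprin1, against a background of 25.7% (12% higher and 13.7% lower in KO mice). In TE 1 of 8 passed, Fmr1, against 7.44%. Apart from the targeted gene, the share called among the paralogs and partners is thus near the background or under it. On plain library sizes without TMM the split of all footprint calls was 2280 higher and 1158 lower, against 1461 and 1662 with TMM, and that of TE calls was 674 and 319 against 391 and 513. These comparisons share mice and control libraries, so their values stand side by side and are not independent of each other.

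The paralog Fxr1 was slightly higher in KO footprints, with a log2 difference of 0.14 ± 0.052 (SE, adjusted p = 0.0432, edgeR, 95% interval 0.032 to 0.24). Its footprints were at 124, 122 and 128 CPM in control mice 1, 3 and 9 and at 137, 141 and 134 CPM in KO mice 2, 4 and 10. The groups did not overlap, which was also so for 37.3% of all genes in footprints. The KO mean was 110% of control, and the KO mouse was the higher in each of the 3 sets of mice whose library titles share a prefix, by 0.14, 0.067 and 0.21 on the log2 scale. The call was close to the threshold. It did not hold when mouse 1 was left out (adjusted p = 0.0823, edgeR), 2 (0.0828), 3 (0.170), 4 (0.157) or 10 (0.0542) and remained without mouse 9 (0.0428), and it was lost with DESeq2 (0.172) and with no filter on low counts (0.0598).

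Fxr1 RNA showed no such rise. It was at 153, 151, 128 and 117 CPM in control mice 1, 3, 6 and 8 and at 134, 130, 128 and 131 CPM in KO mice 2, 4, 5 and 7. The 4 KO values lay within the control range, and the control values were the more spread, with a coefficient of variation of 12.9% against 2.10%. The log2 fold change was -0.069 ± 0.078 (SE, adjusted p = 0.643, edgeR). Within title prefixes, KO minus control was -0.19 for mice 1 and 2, -0.22 for mice 3 and 4 and 0.082 for mice 5 to 8, so the direction was not shared. What the title prefixes stand for is not stated.

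For Fxr1 the footprints relative to RNA differed with the RNA libraries that were used. The TE log2 fold change over all 14 libraries was 0.20 ± 0.11 (SE, adjusted p = 0.298, edgeR, 95% interval -0.028 to 0.42). With the mouse number as a block, which compares both assays within mice 1 to 4, it was 0.36 (adjusted p = 0.000601, edgeR), and with these mice alone 0.36 (adjusted p = 0.000609, edgeR). Without control mouse 8 it was 0.27, with an adjusted p just under the threshold (edgeR). In the mice with both assays, Fxr1 had 0.813 and 0.807 footprint CPM per RNA CPM in control mice 1 and 3 and 1.02 and 1.08 in KO mice 2 and 4. Under the mouse block the number of genes called in TE over the whole table was 1831, against 904 without it.

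Fxr2, the other paralog, passed no test. Its footprints were at 118, 115 and 119 CPM in control mice 1, 3 and 9 and at 111, 110 and 107 CPM in KO mice 2, 4 and 10. With TMM scaling the KO values were the lower without overlap, like those of 37.3% of all genes in either direction, at 93.2% of control. On plain library sizes KO mouse 2, at 113 CPM, lay above control mouse 3, at 112 CPM, so the groups overlapped. The log2 difference with TMM scaling, -0.10 ± 0.056 (SE, adjusted p = 0.182, edgeR, 95% interval -0.21 to 0.0089), did not pass. Fxr2 RNA was at 126 to 138 CPM among controls and 125 to 131 CPM among KO mice, and the log2 change was -0.031 ± 0.054 (SE, adjusted p = 0.782, edgeR). The RNA interval, -0.15 to 0.084, bounds the size of a change that these libraries could have missed.

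The ratio of the paralogs within a library does not depend on library scaling. The log2 ratio of Fxr2 to Fxr1 counts in footprints was -0.11 to -0.076 in the 3 control libraries and -0.36 to -0.30 in the 3 KO libraries, a difference of -0.24. The groups did not overlap, but 3 against 3 libraries cannot give an exact two-sided permutation p under 0.1, and that was the p obtained (0.286 adjusted over 6 ratio tests). In RNA the same ratio differed by 0.030 (exact two-sided permutation test, p = 0.771, adjusted 0.771).

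Summed over the family, Fmr1, Fxr1 and Fxr2 reads averaged 351 ± 30.5 CPM (SD, n = 4) across control RNA libraries against 281 ± 7.75 CPM (SD, n = 4) across KO libraries, 79.9% of the control level. The exact two-sided permutation test of this sum gave p = 0.0286, the smallest that 4 against 4 can give (0.114 adjusted over 4 sums). The sum includes the targeted gene. Fmr1 alone fell from a mean of 83.0 to 21.7 CPM in RNA and from 114 to 7.46 CPM in footprints. In neither assay can the test of this sum tell a change of the family from the loss of Fmr1. The adjusted p-values of these sums could not pass in designs this small. In footprints the sum averaged 356 ± 5.45 CPM (SD, n = 3) across control libraries against 254 ± 4.24 CPM (SD, n = 3) across KO libraries, 71.4% of the control level (exact two-sided permutation test, p = 0.1, adjusted 0.2). Fxr1 and Fxr2 without Fmr1 were at 96.6% of control in RNA (exact two-sided permutation test, p = 0.429) and at 102% in footprints (exact two-sided permutation test, p = 0.4). The sums count reads, which follow gene length as well as number of molecules. Of the family's counts, Fmr1 took 23.6% ± 0.804 (SD, n = 4) across control RNA libraries against 7.71% ± 0.679 (SD, n = 4) across KO libraries. In footprints its share was 32.0% ± 0.520 (SD, n = 3) across control libraries against 2.94% ± 0.581 (SD, n = 3) across KO libraries.

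Cyfip2 RNA was higher in each KO mouse than in each control mouse, but did not pass the test over all genes. It was at 1066, 1034, 1046 and 1046 CPM in control mice 1, 3, 6 and 8 and at 1194, 1169, 1145 and 1168 CPM in KO mice 2, 4, 5 and 7. These groups were tight and did not overlap, as was so for 15.1% of all genes in RNA, and the KO mean was 112% of control. The log2 fold change was 0.16 ± 0.047 (SE, adjusted p = 0.0546, edgeR, 95% interval 0.057 to 0.26). Within title prefixes it was 0.16, 0.18 and 0.14 for mice 1 and 2, mice 3 and 4 and mice 5 to 8. It passed on plain library sizes (adjusted p = 0.0399, edgeR), with DESeq2 (0.00391), without mouse 5 (0.0178, edgeR) and without mouse 8 (0.0361, edgeR). In the exon columns it was 0.14 ± 0.048 (SE, adjusted p = 0.0887, edgeR), and the groups did not overlap, like those of 15.8% of all genes there.

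Cyfip2 footprints were at 638, 629 and 648 CPM in control mice 1, 3 and 9 and at 665, 643 and 633 CPM in KO mice 2, 4 and 10. The groups overlapped, and the log2 fold change was 0.019 ± 0.027 (SE, adjusted p = 0.662, edgeR, 95% interval -0.035 to 0.074). On plain library sizes it was 0.079 (adjusted p = 0.0211, edgeR). The TE of Cyfip2 differed on the log2 scale by -0.15 ± 0.058 (SE, adjusted p = 0.136, edgeR), with an interval of -0.27 to -0.024 for this gene alone. It passed with mice 1 to 4 only (-0.14, adjusted p = 0.0446, edgeR) and with limma's voom and quality weights (-0.15, adjusted p = 0.0153), and on plain library sizes it was -0.079 (adjusted p = 0.437, edgeR). By the ratio of the control group means of both assays, Cyfip2 had the lowest footprint level per RNA of the 8 genes, 0.609, at the percentile 26.3 of all genes.

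Cyfip1, which also links FMRP to eIF4E, was called in none of the comparisons over all mice. Its RNA was at 175, 176, 155 and 160 CPM in control mice 1, 3, 6 and 8 and at 158, 150, 160 and 150 CPM in KO mice 2, 4, 5 and 7. The groups overlapped, and the log2 fold change was -0.11 ± 0.058 (SE, adjusted p = 0.284, edgeR, 95% interval -0.23 to 0.016). Its footprints were at 184 to 195 CPM among controls and 181 to 194 CPM among KO mice, with a log2 change of -0.040 ± 0.044 (SE, adjusted p = 0.566, edgeR). The log2 ratio of Cyfip2 to Cyfip1 counts in RNA was 2.56 to 2.76 in control libraries and 2.84 to 2.96 in KO libraries, a difference of 0.26. The exact two-sided permutation p was 0.0286, the smallest possible here, and 0.171 after adjustment over 6 ratio tests. In footprints the ratio differed by 0.057 (exact two-sided permutation test, p = 0.3, adjusted 0.36).

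**Figure D2:**
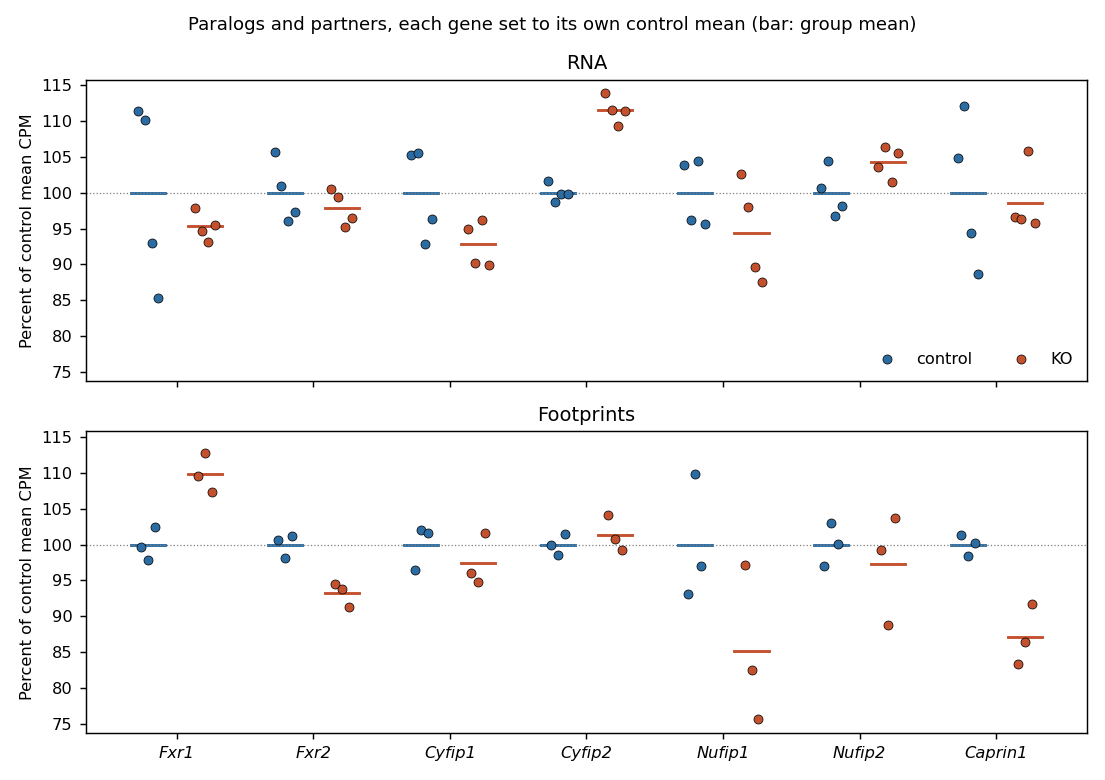
Each library's level of Cyfip1, Cyfip2, Nufip1, Nufip2 and Caprin1 as a percent of the control mean of its assay, by genotype. Each point is 1 mouse. The KO points of Cyfip2 in RNA lie above all its control points, and those of Caprin1 in footprints lie below.

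Caprin1 footprints fell in KO mice to 87.1% of control. They were at 610, 593 and 604 CPM in control mice 1, 3 and 9 and at 502, 521 and 552 CPM in KO mice 2, 4 and 10. No KO library reached the lowest control, and the groups of 37.3% of all genes did not overlap in footprints. The log2 fold change was -0.20 ± 0.029 (SE, adjusted p = 4.69e-08, edgeR, 95% interval -0.25 to -0.14), and within title prefixes it was -0.28, -0.13 and -0.19. The gene was called with each mouse left out in turn (adjusted p between 1.25e-08 and 3.27e-05, edgeR). In size the change is moderate among all genes, with 2476 of 12158 having a lower footprint fold change.

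Caprin1 RNA was not called lower over all mice, but it was in mice 1 to 4 alone. It was at 335, 358, 301 and 283 CPM in control mice 1, 3, 6 and 8 and at 308, 307, 337 and 306 CPM in KO mice 2, 4, 5 and 7. The KO libraries lay within the control range, and the log2 fold change was -0.020 ± 0.070 (SE, adjusted p = 0.896, edgeR, 95% interval -0.17 to 0.13). Within title prefixes it was -0.12, -0.22 and 0.14, so mice 1 to 4 and mice 5 to 8 went in opposite directions. With mice 1 to 4 only, Caprin1 RNA was called lower (-0.16, adjusted p = 0.00502, edgeR). In TE the log2 fold change was -0.19 ± 0.091 (SE, adjusted p = 0.233, edgeR), with the mouse block -0.075 (adjusted p = 0.452, edgeR) and on plain library sizes -0.12 (adjusted p = 0.443, edgeR). The mice with both assays had 1.82 and 1.66 footprint CPM per RNA CPM in control mice 1 and 3 and 1.63 and 1.70 in KO mice 2 and 4, which overlap. Control mice 1 and 3 stood at the percentiles 89.0 and 85.6 of all genes. The ratio of the control group means, which include mice with 1 assay only, was 1.89 (percentile 91.2) and the highest of the 8 genes.

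**Figure D3:**
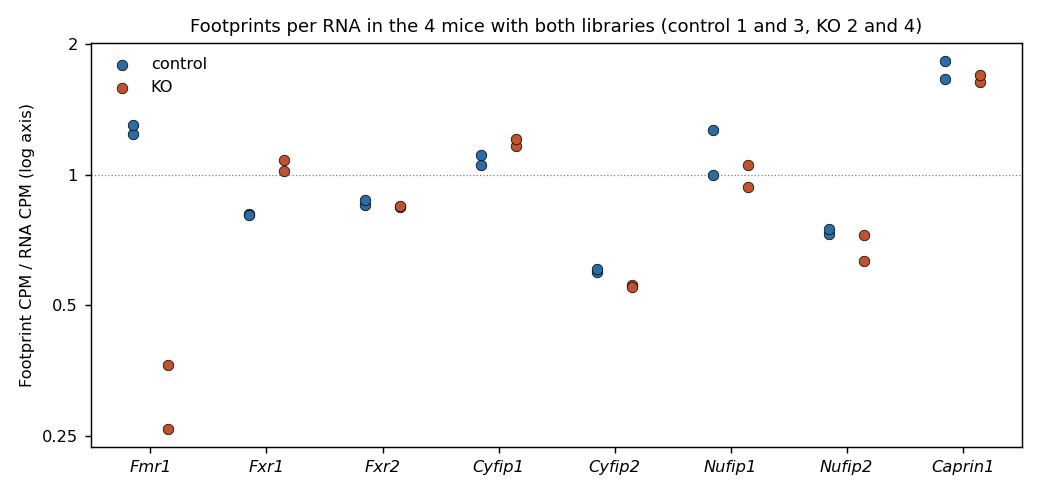
Footprint CPM per RNA CPM of the 8 genes in control mice 1 and 3 and KO mice 2 and 4, the mice with both assays, on a log axis. Fmr1 is lower in both KO mice (0.365 and 0.261 against 1.24 and 1.30) and Fxr1 higher (1.02 and 1.08 against 0.813 and 0.807).

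Nufip1 and Nufip2 passed no test over all mice. Nufip1 RNA was at 25.2, 23.3, 25.4 and 23.2 CPM in control mice 1, 3, 6 and 8 and at 24.9, 23.8, 21.7 and 21.3 CPM in KO mice 2, 4, 5 and 7. Its footprints were at 25.1, 29.6 and 26.1 CPM in control mice 1, 3 and 9 and at 26.2, 22.2 and 20.4 CPM in KO mice 2, 4 and 10. In both assays the groups overlapped. The footprint log2 fold change was -0.25 ± 0.12 (SE, adjusted p = 0.113, edgeR, 95% interval -0.49 to -0.015), larger in size than that of Caprin1 but less precise. Without KO mouse 2 it was -0.35 (adjusted p = 0.0496, edgeR).

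Nufip2 RNA was at 134 to 145 CPM among controls and 140 to 147 CPM among KO mice, with a log2 change of 0.060 ± 0.051 (SE, adjusted p = 0.525, edgeR). Its footprints were at 102 to 108 CPM among controls and 93.4 to 109 CPM among KO mice, with a log2 change of -0.043 ± 0.059 (SE, adjusted p = 0.653, edgeR). Nufip2 stood out from the other genes in how small its RNA column was beside its exon column. Its RNA column held 30.5% ± 3.81 (SD, n = 4) of its exon column's counts in control mice, the lowest share of the 8, while Fxr1 had the highest with 88.0% ± 1.01 (SD, n = 4). None of the 8 shares differed between genotypes after adjustment over the 8 genes. The smallest p was 0.0571 for Fxr2 and for Cyfip2 (exact two-sided permutation test, adjusted 0.229).

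**Figure D4:**
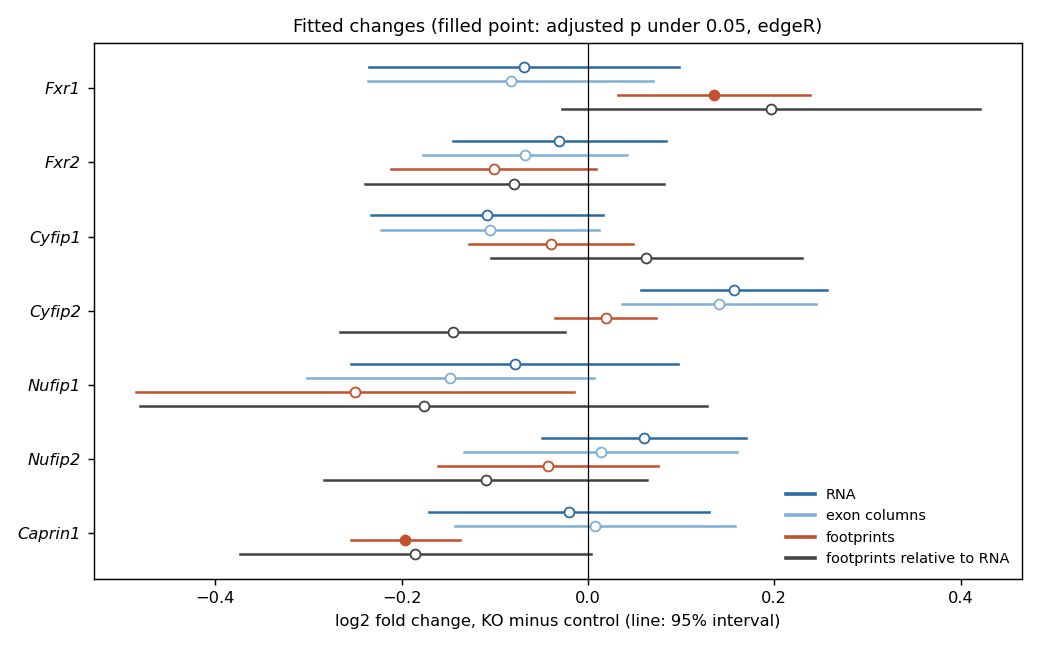
Fitted log2 fold changes, KO minus control, of the 7 paralog and partner genes in RNA, exon columns, footprints and TE, with 95% intervals. Filled points passed the threshold, which only Fxr1 and Caprin1 in footprints did.

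The direction of the differences was compared over the 3 sets of mice whose titles share a prefix, with no test of the difference between assays. Cyfip2 and Nufip2 RNA were higher in KO mice in 3 of 3 sets, and Cyfip1 RNA was lower in 3 of 3. In footprints Cyfip2 and Nufip2 were higher in 2 of 3 and Cyfip1 lower in 2 of 3, with a difference of 0.00016 in its other set. Fxr1 footprints were higher and Caprin1 footprints lower in 3 of 3, while the RNA of each was lower in 2 of 3. Fxr2 was lower in 3 of 3 sets in both assays, by 0.013 to 0.074 in RNA and 0.065 to 0.15 in footprints. With mice 1 to 4 only, 5 of 8 genes were called in RNA, namely Fmr1, Cyfip2 and, lower in KO mice, Fxr1 (-0.20, adjusted p = 0.00532, edgeR), Cyfip1 (-0.18, adjusted p = 0.00722, edgeR) and Caprin1. Over all genes that fit called 3284 (11.8% of genes lower and 12.3% higher), against 1015 with all mice (3.94% and 3.58%). With mice 5 to 8 only, 57 genes were called, of the 8 only Fmr1.

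**Figure D5:**
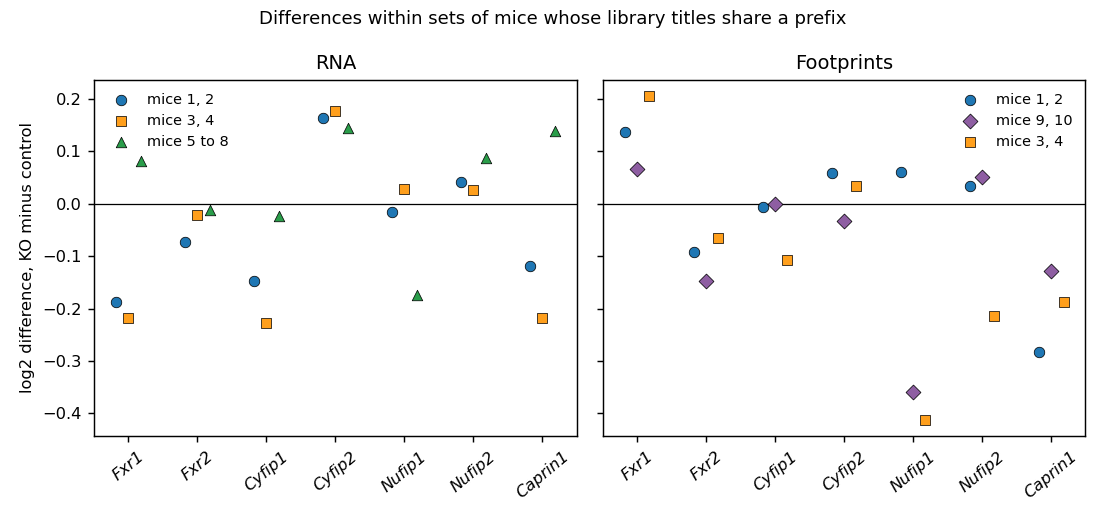
Log2 difference, KO minus control, of each paralog and partner gene within sets of mice whose library titles share a prefix, for RNA and footprints. Each point is 1 set. Fxr1 and Caprin1 RNA are lower in KO mice in the sets of mice 1 to 4 and higher in mice 5 to 8, while their footprints keep 1 direction in all 3 sets.

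Genes that work with the CYFIP proteins were taken as a list of 11 WAVE complex subunits and Cyfip partners. In RNA 1 of 11 was called higher, Rac1, the GTPase that activates the complex (0.32 ± 0.058 SE, adjusted p = 0.00588, edgeR), and none lower, beside 3.58% and 3.94% of all genes. In footprints 1 was called higher (Nckap1, 0.067) and 2 lower (Wasf1, -0.18, and Abi1, -0.24), beside 12% and 13.7% of all genes. DESeq2 did not call Nckap1 (adjusted p = 0.152). In TE 2 of 11 were called lower, Wasf1, the WAVE1 subunit (-0.47 ± 0.13 SE, adjusted p = 0.0360, edgeR), and Rac1 (-0.29 ± 0.077 SE, adjusted p = 0.0252, edgeR), and none higher, beside 4.22% and 3.22% of all genes. The list's TE median was -0.077, beside -0.011 over all genes. On plain library sizes neither gene was called in TE (Wasf1 adjusted p = 0.0576 and Rac1 0.0971, edgeR). With the mouse block 3 of 11 were called lower and 1 higher, beside 8.46% and 6.61% of all genes, and Wasf1 was at -0.28 (adjusted p = 0.000850, edgeR).

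A list of 26 RNA granule partners of FMRP and Caprin1 was examined in the same way. In RNA 2 of 26 were called higher and 1 lower, beside 3.58% and 3.94% of all genes, with a median of 0.072 beside -0.0010. With mice 1 to 4 only, 3 were called higher and 5 lower in RNA, beside 12.3% and 11.8% of all genes, with a median of 0.0087. In footprints 1 of 24 was called higher and 11 lower, beside 12% and 13.7% of all genes. In TE 7 of 24 were called lower and none higher, beside 4.22% and 3.22% of all genes, and the median was -0.27 beside -0.011. The 4 of smallest p were Dicer1, which processes microRNA precursors (-0.71 ± 0.14 SE, adjusted p = 0.00239, edgeR), the ataxin-2 gene Atxn2 (-0.47 ± 0.092 SE, adjusted p = 0.00239, edgeR), its paralog Atxn2l (-0.55 ± 0.11 SE, adjusted p = 0.00304, edgeR) and Purb, a nucleic acid-binding protein (-0.60 ± 0.12 SE, adjusted p = 0.00313, edgeR). G3bp1, the stress granule protein that CAPRIN1 binds, was at -0.12 ± 0.14 (SE, adjusted p = 0.664, edgeR). On plain library sizes 5 of 24 were called lower in TE, beside 2.63% of all genes, and with the mouse block 9 of 24, beside 8.46%.

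The third list held 10 genes of box C/D snoRNP assembly, in which NUFIP1 takes part. In RNA over all mice 0 of 10 were called by edgeR and 0 by DESeq2, and 2 were at an unadjusted p under 0.05 (Nop58 and Znhit6, edgeR). With mice 1 to 4 only, edgeR called 3 of 10 lower in RNA (Nop58, Ruvbl1 and Rpap3), beside 11.8% of all genes. In footprints 1 of 9 was called higher and 3 lower, beside 12% and 13.7% of all genes, and DESeq2 called 0 higher and 1 lower. In TE 1 of 9 was called higher, Nop58, a core snoRNP protein (0.40 ± 0.11 SE, adjusted p = 0.0346, edgeR). The other call was lower, the assembly factor Znhit6 (-1.03 ± 0.21 SE, adjusted p = 0.00376, edgeR). Of all genes 3.22% were called higher and 4.22% lower. DESeq2 called Nop58 and gave no adjusted p for Znhit6. Fbl, the methyltransferase fibrillarin, was at -0.26 ± 0.26 (SE, adjusted p = 0.604, edgeR).

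By likeness of pattern, the genes closest to Fmr1 over the 14 libraries, centred within each assay, were Wdfy1 (Pearson's r = 0.985), Col1a1 (0.979) and Ptpro (0.974), among 10587 genes. Closest to Fxr2 were Tubb3 (0.916), Lamb2 (0.914) and Mef2c (0.896), and closest to Cyfip2 were Tada3 (0.950), Coro7 (0.928) and Nfix (0.927). These points share the genotype difference and the library scaling, so the values are a description of 14 libraries and carry no test.

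RefSeq places 5 of the 8 genes over part of another gene, namely Fxr1 with Dnajc19, Fxr2 with Mir467f, Cyfip1 with Nipa2 and Gm17907, Cyfip2 with Fndc9, Gm12568 and Gm35624, and Caprin1 with Nat10. The strand setting of the counts was not given in the sources used here, so reads of such neighbours, and of near-identical stretches of the paralogs, could be split or shared.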

How the data were processed

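Cortex of Fmr1 KO and control mice was profiled by RNA-seq and ribosome profiling. The authors deposited 1 table of whole-number counts per gene, with no normalization. Per the submitters' processing notes, Bowtie2, STAR 2.5, featureCounts and Subread 1.4.6 were used with builds mm9 and mm10, without their roles. The annotation, strand setting and counted region were not given in the sources used here. In 2849 of 23412 genes the RNA and footprint columns held no value, so these genes were tested in the exon columns only. Genotype and mouse number came from the labels.

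Counts were tested with edgeR 4.0.16's quasi-likelihood F test in R 4.3.3, two-sided, with TMM scaling and filterByExpr's filter on low counts (minimum 10). Adjustment was by Benjamini-Hochberg over all genes tested, and genes with an adjusted p under 0.05 are called. TE is the interaction of genotype and assay in 1 model over all 14 libraries. Standard errors were derived from the F statistic. CPM values are counts scaled by the TMM library size. Ratios of genes within a library used counts plus 0.5. Single values were compared by exact permutation tests. Log2 CPM for the likeness of patterns used a prior count of 2 and genes of at least 5 CPM in both assays. Other normalizations, filters, DESeq2 1.42.0, limma 3.58.1, title prefixes as a block and leaving out each mouse were tried. The fitting code was tested on simulated data.

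The labels give mice 1 to 4 in both assays, which pairs those libraries by animal. The correlation over 10587 genes of their deviations from the group means was -0.0050, 0.044, 0.016 and -0.0028 for the same mouse and -0.015 to 0.024 for different mice.

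The 8 genes, the lists of other genes and the tests were chosen with earlier results of these data known. Named genes were the 8 members, the genes of each list called in TE (the 4 of smallest p where more than 4 were), and Wasf1, G3bp1 and Fbl, and the 3 genes most like Fmr1, Fxr2 and Cyfip2. Rac1, Nckap1 and Abi1 in RNA or footprints, Nop58, Znhit6, Ruvbl1 and Rpap3 in RNA, and Camk2a were named after their values were seen. Ago1 and Ago2 were found in the table under the older symbols Eif2c1 and Eif2c2. No lengths of coding sequence were used here, so sums and shares over the family count reads and give no order of levels between genes. P-values set a difference against the spread between these libraries.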

Additional observations from a re-analysis of the deposited data

Results flagged for a closer look

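Of 58 values examined in groups of 4 libraries, 4 had 1 library far from the others, where chance alone gives about 1 in 20, or 2.9. Caprin1 RNA in KO mouse 5 was at 337 CPM, against 306 to 308 CPM in KO mice 2, 4 and 7, and in the exon columns it was at 319 CPM against 276 to 281 CPM. These are the same library counted over different regions. Fxr1 in the exon columns was at 82.3 CPM in KO mouse 2, against 78.9 to 79.3 CPM in the other KO mice. The RNA column of Fxr1 held 86.5% of the exon column's counts in control mouse 3, against 88.3% to 88.6% in the other controls.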

How the results depend on the processing

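The number of the 8 genes called in RNA was 1 with all mice, 2 on plain library sizes and 2 with DESeq2 (both add Cyfip2), 5 with mice 1 to 4 only and 1 to 2 with each mouse left out in turn. Of all genes, 3.94% were called lower and 3.58% higher in RNA with all mice. These shares were 4.01% and 3.75% on plain library sizes, 4.30% and 4.17% with DESeq2 and 11.8% and 12.3% with mice 1 to 4 only. In the exon columns it was 1 with all mice, 2 with DESeq2, 5 with mice 1 to 4 only and 1 to 2 with each mouse left out. Of all genes there, 4.41% were called lower and 4.23% higher with all mice, 4.81% and 5.27% with DESeq2 and 11.7% and 13.6% with mice 1 to 4 only. In TE it was 1 with all mice, 2 with the mouse number as a replicate block, 3 with mice 1 to 4 only, 2 with limma's voom and 1 to 2 with each mouse left out. Of all genes in TE, 4.22% were called lower and 3.22% higher with all mice, 8.46% and 6.61% with the block and 8.35% and 6.25% with mice 1 to 4 only. The block changed no other call of the 8 genes than that of Fxr1. In footprints the number was 3 with all mice and between 2 and 4 under the alternatives. Of all genes in footprints, 13.7% were called lower and 12% higher with all mice, 8.62% and 6.36% with DESeq2 and 9.52% and 18.8% on plain library sizes. Fmr1 was called in every fit.

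Over all genes, RNA calls numbered 1015 with all mice, 3284 with mice 1 to 4 only, 57 with mice 5 to 8 only, 85 with KO mice 2, 4 and 7 summed, 36 with control mice 1 and 3 also summed, and 372 (without mouse 4) to 1791 (without mouse 8) with each mouse left out. In the exon columns these were 1259, 3728, 19, 138, 41 and 523 to 1909. Footprint calls numbered 3123, and 1821 with DESeq2. TE calls numbered 904, and 1831 with the replicate block, 1779 with mice 1 to 4 only, 1903 with voom, 512 with the RNA libraries summed and 376 to 1229 with each mouse left out.

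Some changes that were not called with all mice reversed direction under other settings. Caprin1 RNA (-0.020) was at 0.14 with mice 5 to 8 only, 0.015 with the libraries of KO mice 2, 4 and 7 summed, 0.054 with control mice 1 and 3 also summed and 0.0074 in the exon columns, and between -0.072 and 0.039 with each mouse left out. Nufip1 RNA was at 0.0095 with mice 1 to 4 only, and Fxr1 RNA at 0.082 with mice 5 to 8 only. In the exon columns, Caprin1 was at -0.0034 on plain library sizes, -0.14 with mice 1 to 4 only and -0.043 to 0.057 with each mouse left out. Nufip2 there was at -0.080 with mice 1 to 4 only and -0.054 to 0.067 with each mouse left out, and Fxr1 at 0.050 with mice 5 to 8 only. On plain library sizes the footprint changes of Cyfip1 and Nufip2 were 0.020 and 0.017, and that of Nufip2 was -0.095 to 0.019 with each mouse left out. The difference in the RNA ratio of Fxr2 to Fxr1 was -0.015 to 0.090 with each mouse left out. The cause of these changes was not tested. The TE fit with these RNA libraries summed was chosen after seeing the data and called 1 of the 8 genes, Fmr1. The sums kept their direction under every alternative tried, and so did the ratios without a pseudocount. Their adjusted permutation p-values could not pass in designs this small.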
